A study of Homo sapiens with 6 samples.

Results

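The zinc-dependent histone deacetylases are enzymes that use a zinc ion to take acetyl groups off lysines. The 10 genes described here, HDAC1 to HDAC10, were taken by name from GENCODE 44, out of 20033 protein-coding genes, and each was followed through the peaks that overlapped its gene body plus 5 kb on each side. These regions add up to 1876 kb of hg38. All 10 genes had at least 1 Kac peak of each condition there and 9 had at least 1 Kbz peak, as 82.6% (control Kac), 81.4% (SB Kac) and 72.3% (SB Kbz) of all protein-coding genes did. The regions held 55 of the 70326 acetylation peaks of control cells, 62 of the 63282 acetylation peaks of benzoate-treated cells and 17 of the 24308 benzoylation peaks of benzoate-treated cells. The methods state an FDR of 0.01, which is a −log10 q of 2, but each deposited value is a mean over its broad peak. With peaks kept from a −log10 q of 2 upwards the numbers were 50, 40 and 15, so the order of the acetylation counts turned. The sizes of the whole lists at that threshold are not given.

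The family is usually divided by sequence and partners. Class I enzymes (HDAC1, HDAC2, HDAC3 and HDAC8) are mostly nuclear, and apart from HDAC8 they work as catalytic subunits of large corepressor complexes. Class IIa enzymes (HDAC4, HDAC5, HDAC7 and HDAC9) have little deacetylase activity of their own, bind MEF2 transcription factors and leave the nucleus when kinases phosphorylate them and 14-3-3 proteins bind them. Class IIb holds HDAC6, a cytoplasmic tubulin deacetylase, and HDAC10, which acts on acetylated polyamines. Acetylation removed by such enzymes is a mark of active promoters and enhancers, so their own genes can be read on the same maps as any other gene.

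The series is a ChIP-seq study of a cell line labelled HepG2, which was established from a human liver tumour. Cells were grown in DMEM with serum, either without further treatment (control) or with sodium benzoate (SB) at 10 mM for 24 h, and chromatin cut with micrococcal nuclease was pulled down with a pan antibody against acetylated lysine (Kac) or against benzoylated lysine (Kbz). The 6 libraries fall into 6 groups of 1 library: input, Kac and Kbz from control and from SB-treated cells. The pan antibodies do not tell which histone or lysine carried a mark, and the label of the control Kbz library says that its peak calling gave no peaks, so 3 lists (control Kac, SB Kac and SB Kbz) are compared. With 1 library in each group there was no spread between replicates and no test, and the depth of the libraries is unknown. A list can therefore hold more peaks than another for reasons of depth, and whether a difference between lists reflects chromatin or depth cannot be told apart. A peak's height is given as the percentile of its fold over background, that is, the share of peaks of the same list with a lower fold.

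The label was checked on 10 hepatocyte marker genes, counting a peak within 3 kb of any annotated transcription start site (TSS). Of the 10, 4 had such a peak in control Kac, 5 in SB Kac and 2 for Kbz. APOA1 and APOA2 had peaks of all 3 lists, TTR and HNF4A of both Kac lists, and AFP of SB Kac. ALB, APOB, SERPINA1, FGB and FOXA2 had none. Among markers of other cell types, 1 of 3 T cell genes (CD3D) and 2 of 3 neuron genes (GAD1 and SYT1) had peaks of all 3 lists, and 0 of 2 erythroid genes did. Of all protein-coding genes, 76.5%, 75.7% and 64.6% had such a peak in control Kac, SB Kac and SB Kbz, and the hepatocyte counts lie below these shares. The markers do not bear out the label, by which the cells are called here.

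The promoter windows below show the range of starts in the family. Each holds 250 bases before and 50 after a RefSeq start (GRCh38.p14), read along the gene, with every CpG in capitals. The CpGs are marked because windows with many of them overlapped peaks of these lists more often than windows with few.
HDAC4, chr2:239401600-239401899, minus strand: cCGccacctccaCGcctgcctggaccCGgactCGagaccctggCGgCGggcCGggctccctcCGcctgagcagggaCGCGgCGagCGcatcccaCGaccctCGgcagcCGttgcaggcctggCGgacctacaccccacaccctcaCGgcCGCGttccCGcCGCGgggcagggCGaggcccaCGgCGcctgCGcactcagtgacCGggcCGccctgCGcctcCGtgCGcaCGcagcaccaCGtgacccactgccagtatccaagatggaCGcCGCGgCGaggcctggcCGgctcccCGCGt
HDAC7, chr12:47819854-47820153, minus strand: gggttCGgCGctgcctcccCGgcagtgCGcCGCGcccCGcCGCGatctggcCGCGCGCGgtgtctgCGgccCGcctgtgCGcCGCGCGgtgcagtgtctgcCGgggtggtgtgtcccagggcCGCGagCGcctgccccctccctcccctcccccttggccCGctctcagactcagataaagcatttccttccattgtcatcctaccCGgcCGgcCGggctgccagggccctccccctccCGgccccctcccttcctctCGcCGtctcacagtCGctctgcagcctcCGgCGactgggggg
HDAC3, chr5:141636800-141637099, minus strand: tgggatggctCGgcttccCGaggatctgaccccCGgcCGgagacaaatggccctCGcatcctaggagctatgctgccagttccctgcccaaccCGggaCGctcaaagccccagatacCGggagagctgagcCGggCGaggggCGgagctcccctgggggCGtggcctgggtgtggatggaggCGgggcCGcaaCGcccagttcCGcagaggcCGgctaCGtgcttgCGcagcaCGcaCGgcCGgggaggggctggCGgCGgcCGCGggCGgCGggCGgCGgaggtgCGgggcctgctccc
HDAC8, chrX:72572794-72573093, minus strand: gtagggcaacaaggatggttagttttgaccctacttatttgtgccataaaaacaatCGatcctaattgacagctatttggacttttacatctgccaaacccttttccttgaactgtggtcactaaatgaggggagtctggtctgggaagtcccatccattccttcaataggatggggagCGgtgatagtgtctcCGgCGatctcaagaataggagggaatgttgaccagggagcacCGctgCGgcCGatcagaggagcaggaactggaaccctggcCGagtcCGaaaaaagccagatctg
HDAC9 upstream start, chr7:18086575-18086874, plus strand: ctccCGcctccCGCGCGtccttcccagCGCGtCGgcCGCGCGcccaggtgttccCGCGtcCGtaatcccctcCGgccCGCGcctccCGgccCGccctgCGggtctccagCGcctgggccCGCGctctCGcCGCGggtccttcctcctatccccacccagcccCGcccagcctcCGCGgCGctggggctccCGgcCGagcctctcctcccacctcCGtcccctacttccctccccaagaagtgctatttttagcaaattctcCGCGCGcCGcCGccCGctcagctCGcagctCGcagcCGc
HDAC9 canonical start, chr7:18495499-18495798, plus strand: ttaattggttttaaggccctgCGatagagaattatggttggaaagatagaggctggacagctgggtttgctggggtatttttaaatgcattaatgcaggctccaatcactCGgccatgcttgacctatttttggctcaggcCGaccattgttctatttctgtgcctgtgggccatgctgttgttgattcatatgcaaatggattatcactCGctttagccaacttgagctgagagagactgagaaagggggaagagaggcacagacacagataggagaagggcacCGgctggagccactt

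The HDAC4 window held 40 CpGs and lay whole inside the peaks of all 3 lists. The HDAC7 and HDAC3 windows held 33 and 31 CpGs and lay whole inside both Kac peaks, while the nearest Kbz peak lay 54 bases from the HDAC7 window and 26 bases from the HDAC3 window. HDAC8 is the exception among the starts with all marks, since its window held 9 CpGs and a GC content of 49.3% and still lay whole inside the peaks of all 3 lists. The HDAC9 gene shows both ends of the range. Its upstream window held 41 CpGs and lay inside the Kac peaks of both conditions with no Kbz, and its canonical window held 5 CpGs and no peak.

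Of the other members with a RefSeq window, HDAC1 held 28 CpGs, HDAC2 24, HDAC6 27 and HDAC10 40, and each was covered by SB Kac and SB Kbz over all 300 bases. A window was found for 9 of the 10 members and not for HDAC5. Among all 35116 RefSeq promoter windows, an SB Kbz peak overlapped 3.9% of those with 0 to 4 CpGs, 16.1% of those with 5 to 9, 48.2% of those with 10 to 19, 70.5% of those with 20 to 29 and 61.8% of those with 30 or more. SB Kac overlapped 33.1% of the windows with 5 to 9 CpGs, the class of HDAC8, and 79.3% of those with 30 or more. In the main window of each of these 9 members, 3 short motifs were looked for on both strands, none of which contains another. The GC box GGGCGG occurred in 55.6% of the 9 windows against 45% of all windows. The CCAAT box occurred in 44.4% against 34.6%. The TATA box, as TATAAA, occurred in 0 of the 9 against 11.5%. With 9 windows each share lies about 1 gene from that of all promoters, and the matches describe letters, not bound factors.

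**Figure D1:**
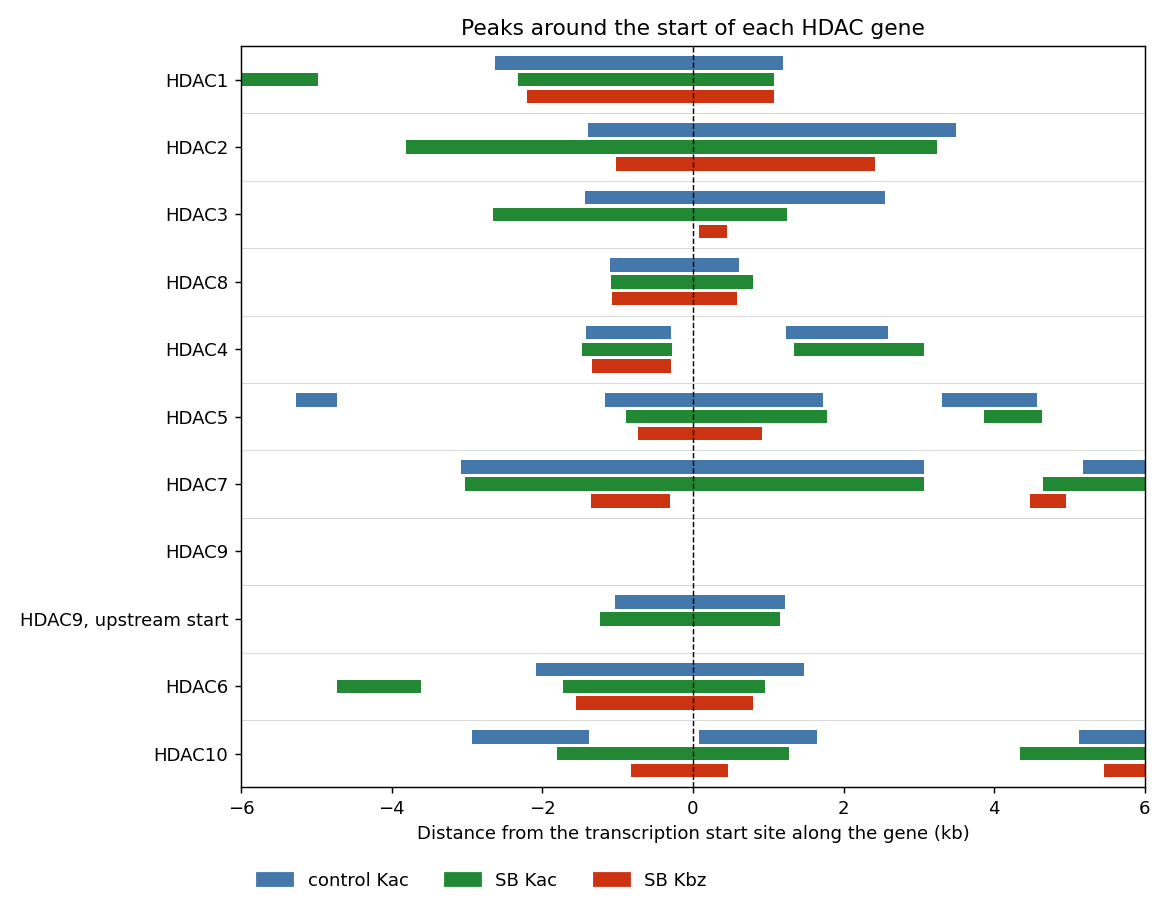
Peaks of control Kac, SB Kac and SB Kbz within 6 kb of the canonical start of each gene on either side, with the upstream RefSeq start of HDAC9 on a line of its own. The horizontal axis is the distance along the gene in kb, each bar is 1 peak, and bars stop at the edge of the window. All 3 lists have a peak near 9 of the 10 canonical starts, and the Kbz bar is short beside the Kac bars at HDAC3 and HDAC7.

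All 10 genes had a Kac peak of both conditions within 3 kb of a start, and 9 of 10 had a Kbz peak there, the exception being HDAC9. The same holds for 76.5% of all protein-coding genes in control Kac, 75.7% in SB Kac and 64.6% for Kbz. At the canonical start alone (that of the main annotated transcript), 9 of the 10 genes had all 3 marks and HDAC9 had none, against 59.8% of protein-coding genes with all 3 and 24.6% with none. By list, 72.8%, 71.9% and 60.3% of protein-coding genes had a peak there. Among genes with Kac at the canonical start in both conditions, 86.2% had Kbz there. Most genes with acetylated starts thus had Kbz as well, and 9 of 9 HDAC genes with acetylated canonical starts lie close to that background.

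The Kac peaks at these starts were high in their lists. Their percentiles lay between 73.6 and 98.4 in control Kac (median 88.8) and between 73.6 and 99.8 in SB Kac (median 89.6). The Kbz peaks ranged more widely, from 31.6 to 98.3 (median 72.8). Kbz peaks were also shorter, with a median of 1646 bp against 3082 bp for SB Kac, and each lay at least 99.9% inside the SB Kac peak. Heights and lengths of the start peaks of other genes are not given, so these values cannot be read as particular to the HDAC genes.

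HDAC1 (ENSG00000116478.12, chromosome 1, 32292083 to 32333635, plus strand) and HDAC2 (ENSG00000196591.12, chromosome 6, 113933028 to 114011308, minus strand) encode closely related catalytic subunits of the Sin3, NuRD and CoREST complexes. At the HDAC1 start the peak stood at percentile 92.2 in control Kac, 95.5 in SB Kac and 74.0 for Kbz, with lengths of 3820, 3398 and 3279 bp. At the HDAC2 start the percentiles were 89.7, 96.1 and 86.2 and the lengths 4889, 7053 and 3449 bp. The HDAC1 Kbz peak therefore filled almost the whole Kac domain (its length was 96.5% of that of SB Kac), while at HDAC2 it filled a smaller part (48.9%). The HDAC2 domain also holds the start of the antisense gene HDAC2-AS2, and a peak does not tell which of the pair of genes it belongs to.

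HDAC3 (ENSG00000171720.10, chromosome 5, 141620876 to 141636849, minus strand) is the catalytic subunit of the NCoR/SMRT complex. Its start lay in a control Kac peak of 3984 bp at percentile 73.6 and an SB Kac peak of 3897 bp at percentile 75.7. The Kbz peak there was 382 bp long, began 75 bp downstream of the canonical start and stood at percentile 33.0. It was the shortest Kbz peak of the family and its length was 9.80% of that of the SB Kac peak. Both Kac peaks also hold the start of RELL2, which the Kbz peak does not reach, although it lies within 3 kb of it.

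HDAC8 (ENSG00000147099.21, chromosome X, 72329516 to 72573101, minus strand), which removes acetyl groups from the cohesin subunit SMC3, had 1 peak in each list over a gene of 244 kb. Peaks of 1724 bp in control Kac, 1895 bp in SB Kac and 1652 bp for Kbz covered its start, at percentiles 92.5, 89.6 and 43.7. The Kac peaks were thus among the high ones and the Kbz peak was below the middle of its list. The remainder of the gene, which has 41 annotated start positions, was free of peaks in all 3 lists. Of the 1502 protein-coding genes longer than 200 kb, 75.2% had more than 1 SB Kac peak and the median was 5 (quartiles 2 and 11). The HDAC8 start peaks lie within 3 kb of a start of the overlapping protein-coding gene ENSG00000285547 as well, and the 3 lists cannot tell them apart.

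HDAC6 (ENSG00000094631.22, chromosome X, 48801377 to 48824982, plus strand) had start peaks at percentiles 88.8, 90.7 and 72.8 in the 3 lists, with lengths of 3557, 2686 and 2346 bp. HDAC10 (ENSG00000100429.18, chromosome 22, 50245183 to 50251405, minus strand) stood lower, at percentiles 77.3, 73.6 and 31.6. In control Kac the HDAC10 start fell into a gap, with 1 peak from 80 bp downstream of it and another that ended 1386 bp upstream. In SB Kac a single peak of 3082 bp spanned the start and overlapped both control peaks, and the Kbz peak of 1289 bp lay over the start and inside that peak. HDAC10 was the 1 member whose canonical start was covered in SB Kac and not in control Kac.

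Away from their starts, the class I and class IIb genes held few peaks. HDAC1 had an SB Kac peak 4980 bp upstream of its start (32285886 to 32287103, percentile 52.1) that overlapped a Kbz peak lying outside the region. It had low Kac peaks in introns 2 and 3 in control cells, at percentiles 9.56, 14.5 and 1.24, of which that at 14.5 in intron 2 met an SB Kac peak at percentile 7.39. An SB Kac peak over exons 13 and 14 of HDAC1 (percentile 2.70) had no control counterpart. HDAC2 had an SB Kac peak of 859 bp over exon 3, at percentile 27.0, without one in control Kac, and a small peak 24547 bp upstream of its canonical start in both conditions, at percentile 37.4 in control and 12.9 in SB. HDAC6 had an SB Kac peak of 1115 bp upstream of its start domain, at percentile 50.8, with neither control Kac nor Kbz. Apart from the upstream HDAC1 peak, none of these peaks of HDAC1, HDAC2 and HDAC6 overlapped a Kbz peak.

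**Figure D2:**
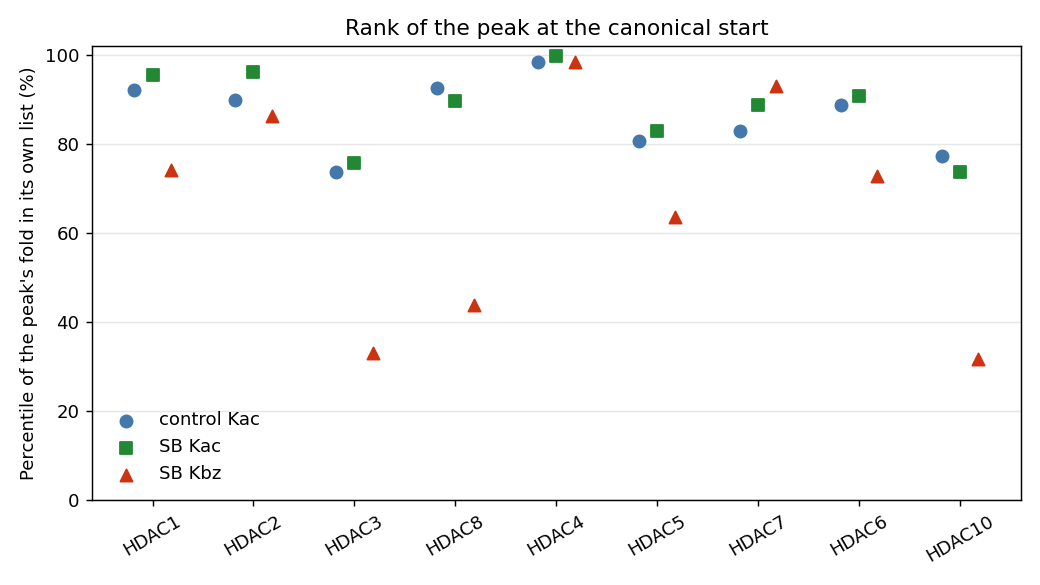
Percentile of the peak at the canonical start of 9 HDAC genes in each list, HDAC9 having no peak there. The vertical axis is the percentile of the peak's fold among all peaks of its own list (in %), and each symbol is 1 peak of 1 library. Control Kac and SB Kac lie close together at each gene, and the Kbz symbols spread from 31.6 at HDAC10 to 98.3 at HDAC4.

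Between control and SB, the percentile of the start peak was higher in SB Kac for 7 of the 9 genes, and lower for HDAC8 and HDAC10. The differences lay between -3.76 points at HDAC10 and 6.39 points at HDAC2, with a median of 2.08. Over the 13898 protein-coding genes with both peaks, 62.8% were higher in SB Kac and the median difference was 2.33 (quartiles -2.73 and 9.10). The median difference of the HDAC starts was therefore close to that of all these genes. No HDAC start passed the upper quartile of 9.10, and HDAC8 (-2.89) and HDAC10 (-3.76) lay below the lower quartile of -2.73. HDAC4 and HDAC7 had the highest Kbz percentiles, and at HDAC7 alone the Kbz percentile exceeded both Kac percentiles. Each percentile is a rank within its own list, and the Kbz list holds 24308 peaks against 70326 and 63282 in the Kac lists. The HDAC7 Kbz peak is also shorter (1052 bp against 6144 and 6101 bp), so its higher rank does not show more benzoylation than acetylation.

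The class IIa genes held most of the Kac peaks, 40 of 55 in control and 47 of 62 in SB, and 8 of the 17 Kbz peaks, over 1406 kb of the 1876 kb. Class I held 11, 11 and 6 peaks over 419 kb, and class IIb 4, 4 and 3 over 49.8 kb. Per 100 kb of region, SB Kac peaks numbered 2.62 in class I, 3.34 in class IIa and 8.03 in class IIb, and SB Kbz peaks 1.43, 0.569 and 6.02. Class IIa thus had the fewest Kbz peaks for its length, and the share of the region that Kbz covered was 2.79%, 0.511% and 14.2% in the same order. The lengths of the genes alone span from 6.22 kb for HDAC10 to 915 kb for HDAC9, so the densities follow length as well as class and the pair cannot be told apart.

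**Figure D3:**
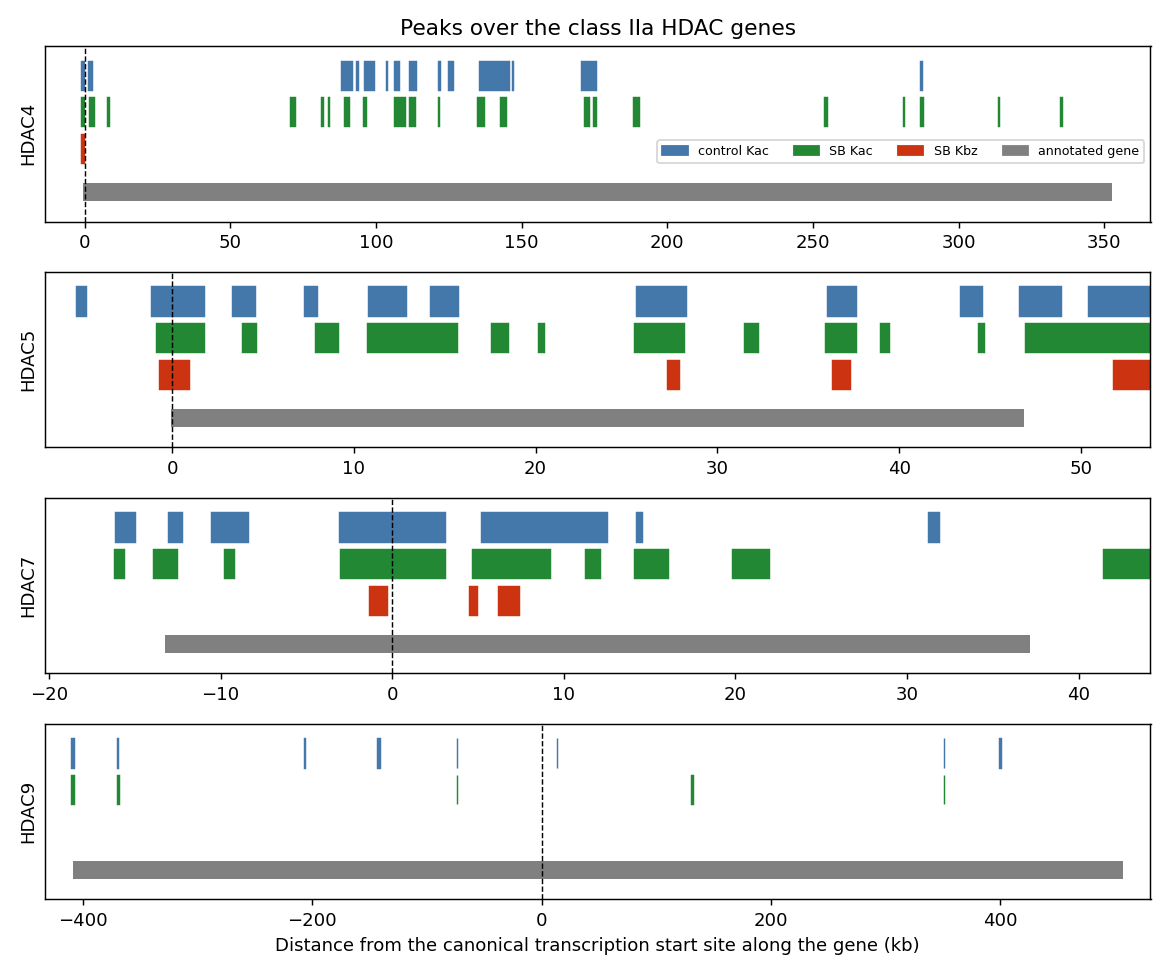
Peaks of the 3 lists over the 4 class IIa genes, drawn along each gene from its canonical start (dashed line). The horizontal axis is the distance from that start in kb, on a scale of its own for each gene, the grey bar is the annotated gene, and bars that run past an edge stop there. HDAC4 has Kac peaks scattered along its body and Kbz at its start, HDAC5 has Kbz along the gene, and HDAC9 has Kac peaks without Kbz.

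HDAC4 (ENSG00000068024.18, chromosome 2, 239048168 to 239401654, minus strand) had the highest start peak and the most Kac peaks of the family. The start peak stood at percentile 98.4 in control Kac, 99.8 in SB Kac and 98.3 for Kbz, with lengths of 1136, 1188 and 1048 bp. In all 3 lists it ended short of the canonical start, 288, 281 and 292 bp upstream of it, and it covered the RefSeq start shown above, which lies 629 bp upstream of the canonical start. These peaks also hold the start of the antisense gene HDAC4-AS1, so the height cannot be given to HDAC4 alone.

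Over the whole HDAC4 region there were 14 control Kac peaks, 21 SB Kac peaks and 1 SB Kbz peak. From a −log10 q of 2 upwards the Kac numbers were 14 in control and 13 in SB, so the larger SB number came from peaks under that threshold. Genes longer than 200 kb had a median of 5 peaks in each Kac list, with quartiles 2 and 11, and 0.889% of all protein-coding genes had 20 or more SB Kac peaks. Outside the start, the highest control Kac peak was a domain of 10285 bp in intron 2, 135286 bp from the canonical start (239255450 to 239265734), at percentile 89.0. In SB Kac, 2 peaks of 1861 and 2254 bp lay on it, at percentiles 33.3 and 60.5, so that the covered length within this stretch was 4115 bp. A domain in intron 3 (239225434 to 239230629, percentile 65.7 in control Kac) likewise met 2 SB Kac peaks, at percentiles 42.0 and 6.57. Both domains were therefore shorter and lower in the SB list than in the control list.

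Elsewhere in HDAC4 the lists differed in which small peaks they held. Among control Kac peaks 4 of 14 had no SB Kac peak, against 35.3% of the whole control Kac list. All 4 lay in intron 2, with percentiles from 32.7 to 42.6. Among SB Kac peaks 9 of 21 had no control Kac peak, against 27.5% of the whole SB Kac list. The 9 peaks had percentiles from 17.2 to 60.0 and positions from intron 1 to intron 24. In bases covered, HDAC4 held 33498 bp of control Kac (9.22% of its region) and 27194 bp of SB Kac (7.48%). None of the 20 SB Kac peaks of HDAC4 outside its start peak had Kbz, and their percentiles did not pass 60.5.

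HDAC5 (ENSG00000108840.16, chromosome 17, 44076746 to 44123702, minus strand) had 11 control Kac, 12 SB Kac and 4 SB Kbz peaks. Without the flank, or without peaks at the promoters of other genes, HDAC5 and HDAC7 had 3 Kbz peaks each. A peak covered its canonical start in each list, at percentiles 80.7, 82.8 and 63.5. A Kbz peak of 612 bp lay in intron 3, 27256 bp downstream of the start (44095774 to 44096385), at percentile 72.1, and the Kac peak around it stood at percentile 60.0 in control and 92.9 in SB. A Kbz peak of 993 bp lay over exon 14 of the canonical transcript (44086367 to 44087359) at percentile 9.87, and the Kac peak around it, over exons 13 and 14, stood at percentile 92.5 in control and 68.9 in SB. These body sites of HDAC5 thus moved in opposite directions by more than 20 points each, and both carried Kbz. The last Kbz peak (44069700 to 44071887, percentile 72.6) lies downstream of HDAC5 at the promoters of LSM12 and G6PC3.

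HDAC7 (ENSG00000061273.18, chromosome 12, 47782722 to 47833132, minus strand) had a Kac domain of 6144 bp in control and 6101 bp in SB over its canonical start, at percentiles 82.9 and 88.7. The Kbz peak in it was 1052 bp long, lay upstream of the start, 304 bp from it at its nearer end, and stood at percentile 93.1. It filled 17.2% of the length of the SB Kac domain and left the canonical start itself uncovered. The Kac domain of each condition also holds the start of 1 other annotated gene, which the Kbz peak does not hold, so the domain cannot be given to HDAC7 alone. Further Kbz peaks lay in intron 1, 4473 bp downstream of the start (47814947 to 47815430, percentile 4.04) and 6153 bp downstream (47812536 to 47813750, percentile 45.4), both within 3 kb of annotated alternative starts. The former was the 1 Kbz peak of the family that overlapped no control Kac peak. Upstream of the canonical start, a Kac peak near another annotated start (47834912 to 47836072) stood at percentile 75.1 in control and 7.69 in SB, a difference of -67.4 points, which was the lowest of the family.

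HDAC9 (ENSG00000048052.25, chromosome 7, 18086949 to 19002416, plus strand) was the longest gene and the 1 member without Kbz. It had 8 control Kac and 5 SB Kac peaks over 915 kb, covering 1.03% and 0.669% of its region. Its canonical start at 18495749 had no peak within 3 kb. At the upstream start, 408924 bp before it, a Kac peak of 2258 bp stood at percentile 63.5 in control and a peak of 2395 bp at percentile 61.5 in SB. Of control Kac peaks 4 of 8 had no SB Kac peak (35.3% in the whole list), with percentiles from 31.7 to 65.1. Of SB Kac peaks 1 of 5 had no control Kac peak (27.5% in the whole list).

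The lack of Kbz at HDAC9 can be set beside several backgrounds. Kac of both conditions with no Kbz anywhere in the region occurred in 10.4% of the 15989 protein-coding genes with both Kac marks. At least 1 Kbz peak occurred in 81.3% of genes longer than 200 kb. Among SB Kac peaks between percentiles 60 and 70, where the highest HDAC9 peaks lay (61.5 and 62.8), 36.3% had Kbz. That share covers peaks at any position, and the peak at 61.5 lies at the upstream start, whose window held 41 CpGs. Of all RefSeq windows with 30 or more CpGs, 61.8% overlapped SB Kbz. HDAC9 was thus outside the larger group of long genes and of CpG-rich windows, while its Kac peaks were of a height at which most peaks had no Kbz. Why HDAC9 had no Kbz peak was not tested.

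Over the 10 genes together, 17 of 17 Kbz peaks lay on an SB Kac peak (100%, Wilson 95% interval 81.6 to 100, counting error only), against 93.7% of the whole Kbz list. On a control Kac peak lay 16 of the 17, and the share of the whole Kbz list on control Kac is not given. Of the 62 SB Kac peaks, 17 had Kbz (27.4%, 17.9 to 39.6), against 33.8% of the whole list.

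**Figure D4:**
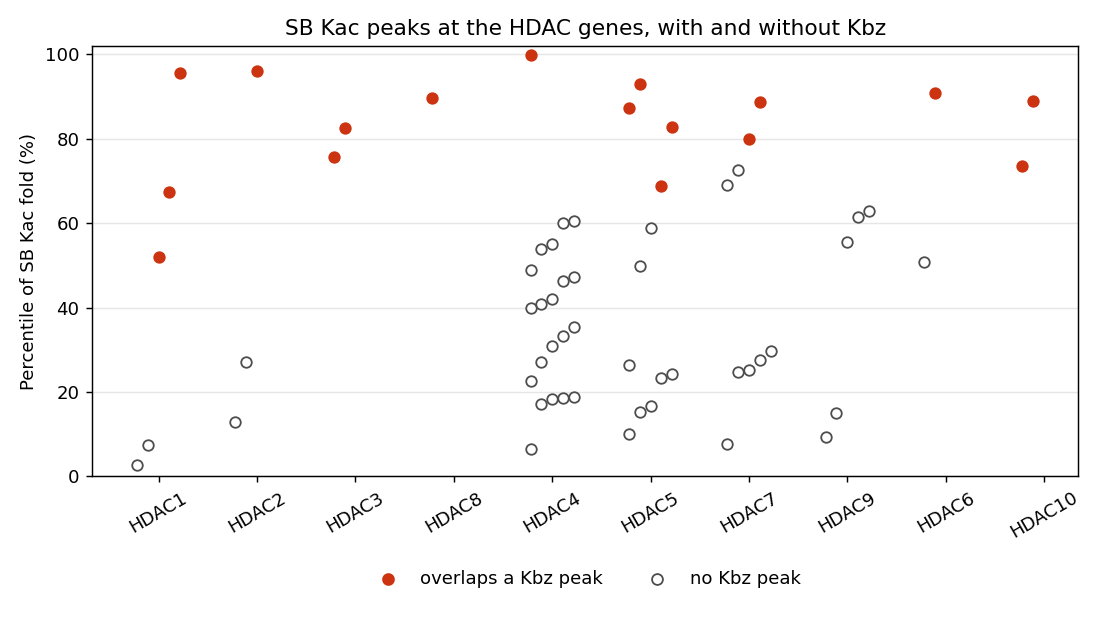
Every SB Kac peak at the 10 genes by its percentile among all SB Kac peaks (vertical axis, in %), filled where it overlaps a Kbz peak and open where it does not. Points of a gene are spread sideways so that they can be told apart. All points above percentile 80 are filled and all points at or below percentile 50 are open.

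Which Kac peaks had Kbz went with their height. Above percentile 80, 11 of 11 SB Kac peaks had Kbz (96.4% of such peaks in the whole list). Above percentile 50, 17 of 28 did (63.2% in the whole list), and at or below it 0 of 34 did (4.39%). The SB Kac peaks with Kbz had a median percentile of 87.2 and a median length of 3398 bp, and the 45 without had 27.5 and 943 bp. The highest SB Kac peaks without Kbz were those at percentiles 72.7 and 69.1 in the HDAC7 region, of which the former lies at the promoters of RAPGEF3 and SLC48A1. The lowest with Kbz was at percentile 52.1, 4980 bp upstream of the HDAC1 start (32285886 to 32287103), at the edge of the HDAC1 region, and the Kbz peak on it lies outside the region. The HDAC genes followed the whole list in this, where height and Kbz go together as well.

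The same was seen from the control side, where the Kac peaks came from cells without benzoate. Above percentile 80 of control Kac, 9 of 10 peaks had an SB Kbz peak, against 83.3% of the whole list. The exception was the intron 2 domain of HDAC4 described above. Control and SB Kac share their antibody and Kac and Kbz of SB cells share their treatment, and the lists were set side by side without a test of why their heights go together.

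Control Kac peaks without an SB Kac peak made up 12 of 55 (21.8%, 12.9 to 34.4), against 35.3% of the whole list. They lay in HDAC1 (2), HDAC4 (4), HDAC5 (1), HDAC7 (1) and HDAC9 (4), and none of them overlapped a Kbz peak. SB Kac peaks without a control Kac peak made up 19 of 62 (30.6%, 20.6 to 43.0), against 27.5% of the whole list. They lay in HDAC1 (2), HDAC2 (1), HDAC4 (9), HDAC5 (4), HDAC6 (1), HDAC7 (1) and HDAC9 (1), and 1 of the 19 had Kbz, the HDAC1 peak at percentile 52.1. From a −log10 q of 2 upwards in both lists the order of these shares turned, with 15 of 50 control Kac peaks (30%) and 6 of 40 SB Kac peaks (15%) without a counterpart. The shares of the whole lists at that threshold are not given, so the turn cannot be read as particular to the HDAC genes. Peaks of a single condition were small, with a median length of 606 bp for control and 777 bp for SB, and stood no higher than percentile 65.1 and 60.0. HDAC3, HDAC8 and HDAC10 had none of either kind. How often peaks of a single condition had Kbz in the whole lists is not given, so these Kbz counts have no background. Among all SB Kac peaks at or below percentile 50, 4.39% had Kbz.

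Grouped into stretches of touching Kac peaks, the 10 genes had 33 stretches with 1 peak of each condition. In 3 stretches a control peak met several SB peaks (HDAC4, 2 times, and HDAC7), in 3 several control peaks met 1 SB peak (HDAC1, HDAC5 and HDAC10), and in 1 several met several (HDAC5). The same counts over the whole lists are not given, so these numbers cannot be read as particular to the HDAC genes.

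Of the 47 overlapping pairs of control and SB Kac peaks, those with Kbz in the shared part differed less in percentile. A peak that met several peaks of the other list was counted in each of those pairs, so the pairs are not independent. Some pairs set a small peak against a longer merged one, or a domain against its pieces, and such pairs were not set apart. The 17 pairs with Kbz had a median absolute difference of 4.82 points and 2 of them differed by more than 20 points, both in HDAC5 (the body sites described above). The 30 pairs without Kbz had a median of 21.4 points and 16 of them differed by more than 20 points. In the whole lists, 14.7% of the 21314 pairs with Kbz and 45.5% of the 26764 pairs without it differed by that much. The 16 control Kac peaks with Kbz also stood higher in their list (median percentile 81.8), and the part of height in this difference was not tested.

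Some peaks of these regions belong as much to neighbours. Within 3 kb of a start of another protein-coding gene lay 8 control Kac, 7 SB Kac and 6 SB Kbz peaks, at MARCKSL1 (HDAC1), DIAPH1 and RELL2 (HDAC3), ENSG00000285547 (HDAC8), LSM12 and G6PC3 (HDAC5), RAPGEF3 and SLC48A1 (HDAC7), and TUBGCP6 and MAPK12 (HDAC10). The longer Kbz peak of HDAC10 (50242378 to 50245811, 3434 bp, percentile 77.7) covers the end of HDAC10, over exons 19 and 20, and stood above the Kbz peak at the HDAC10 start (percentile 31.6), but lies at the promoter of TUBGCP6. With these peaks left out, 11 SB Kbz peaks remained.

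The genes of the complexes in which these enzymes work were marked in the same way. Of 61 partner genes, 60 had a control Kac peak within 3 kb of a start, 59 an SB Kac peak and 56 an SB Kbz peak, against 76.5%, 75.7% and 64.6% of all protein-coding genes. With each list cut to its 15000 peaks of lowest p the numbers were 36, 48 and 48, so the order turned. The share of all protein-coding genes at that cut is not given, so the turn cannot be read as particular to the partner genes. All 3 marks were present at 13 of 15 Sin3 genes, 10 of 11 NuRD genes, 9 of 9 CoREST genes, 5 of 5 NCoR/SMRT genes, 6 of 6 MiDAC and MIER genes and 13 of 15 genes for class IIa partners (MEF2 factors, 14-3-3 proteins and kinases). SAP130 and ING2, both of the Sin3 complex, had Kac of both conditions and no Kbz. MBD2, the NuRD subunit that binds methylated CpG, had control Kac peaks and no peak of either SB list. PRKD1, a kinase that phosphorylates class IIa enzymes, had Kac at its promoter and Kbz only elsewhere in its region, with 2 Kbz peaks. SIK1, a kinase of the same enzymes, had no peak of any list, but 94.0% of the 50-base words of its region occur elsewhere on chromosome 21 of the reference, and the authors kept uniquely mapped reads, so its lack of peaks is uncertain.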

How the data were processed

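ChIP-seq peak lists of HepG2 libraries were used for control Kac, SB Kac and SB Kbz, 1 library each. Per the labels and the study's methods, the authors aligned reads with Bowtie2 2.2.6 to hg38, kept unique reads, removed duplicates with SAMtools 0.1.19 and called broad peaks with MACS2 2.1.1 at an FDR of 0.01, without pooling. The deposited −log10 q goes down to 1.31, where an FDR of 0.01 would be 2. The deposited fold, a linear ratio over background, was turned into a percentile of the list. Thresholds used the −log10 p and −log10 q that the authors deposited, and the deposited score, a display integer, was not used. A broad peak's values are means over its region, so a value under 2 does not show that the peak was called beyond the stated FDR. The SB Kbz list holds more peaks than the paper reports for Kbz in SB-treated cells. The lists hold no read totals, so depth is unknown.

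The 10 HDAC genes, all of them named, came from GENCODE 44, and 3 peaks on sequences outside the 24 chromosomes were left out. A peak overlapped a region or peak with at least 1 bp in common. Promoters were 3 kb to either side of any annotated TSS. Exons and introns are those of the canonical transcript. Coordinates are 1-based. Promoter windows came from RefSeq (GRCh38.p14), with none used for HDAC5. The 10 hepatocyte genes, the markers of T cells, erythroid cells and neurons and the 61 partner genes were fixed lists, of which partners are given as counts and named where a mark was missing. Some marker genes are not reported here. The members and lists were chosen with earlier results of these data known. Shares have Wilson 95% intervals, which cover counting error only, and no test between groups was made. Alternatives were stricter q thresholds, other flanks, a narrower promoter, the canonical TSS, a 50% overlap and leaving out peaks at other genes' promoters. An alternative with 15000 peaks a list, those of lowest p, was added after seeing the data. Overlap counting was tested on simulated data, and of 6 real counts compared with bedtools 2.31.1, 0 differed. Python 3.11.15, numpy 2.4.6, pandas 2.3.3, scipy 1.17.1 and matplotlib 3.10.9 were used.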

Additional observations from a re-analysis of the deposited data

How the results depend on the processing

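Of 90 recomputed counts and shares, 69 stayed within 1.5 times the count or within the interval of the share, and 21 did not. From a −log10 q of 2 upwards, 50 control Kac and 40 SB Kac peaks were left (55 and 62 in the full lists), 40% of SB Kac peaks had Kbz, 15% of them had no control Kac peak, and 30% of control Kac peaks had no SB Kac peak. With at least 5, there were 13 control Kac, 16 SB Kac and 11 SB Kbz peaks, 76.9% of control Kac and 87.5% of SB Kac peaks lay at the genes' promoters (58.2% and 50% in the full lists), and 68.8% of SB Kac peaks had Kbz. The share of Kbz peaks at the genes' promoters (88.2%) was 100% without the flank and 100% without peaks at promoters of other protein-coding genes, which left 11 Kbz peaks. The shares of the whole lists that lie at promoters are not given, so these promoter shares have no background to be read against. With promoters of 1 kb the shares were 34.5% (control Kac), 32.3% (SB Kac) and 64.7% (Kbz), and with the canonical TSS alone 20%, 16.1% and 52.9%. With an overlap of at least 50%, 11.3% of SB Kac peaks had Kbz and 38.2% of control Kac peaks had no SB Kac peak. With lists of the 15000 peaks of lowest p, 36 of 61 partner genes had a control Kac promoter peak, 48 an SB Kac peak and 48 an SB Kbz peak (60, 59 and 56 in the full lists). In these settings fewer peaks or narrower windows were counted. Shares of the whole lists or of all protein-coding genes are not given at the stricter q thresholds or for 15000 peaks a list. No paired analysis was possible because there was a single library in every group, and for the same reason no replicate could be left out.

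The unknown depth limits every comparison of peak numbers between lists, and a missing peak says only that none was called in that library. Under the threshold of 5, the canonical starts of HDAC3, HDAC8 and HDAC10 had no Kbz peak and HDAC9 had no peak of any list. The number of HDAC genes with a promoter peak was then 8, 9 and 7 in the order control Kac, SB Kac, Kbz, and 7, 8 and 8 with 15000 peaks a list. The share of all protein-coding genes is not given for either setting.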

Other observations

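HDAC11, the class IV enzyme, was outside the 10 genes and was looked up in the same way. Its region held 5 control Kac, 7 SB Kac and 4 SB Kbz peaks. At its start a Kac peak of 6143 bp stood at percentile 69.0 in control and a peak of 6370 bp at percentile 79.1 in SB. Kbz lay upstream of the canonical start in 2 peaks on that domain, the nearer of which ended 319 bp before the start and stood at percentile 61.6. A further HDAC11 Kbz peak of 280 bp (chromosome 3, 13495528 to 13495807, percentile 33.5) overlapped no Kac peak of either condition, whereas every Kbz peak at HDAC1 to HDAC10 lay on SB Kac.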
